A study of Mus musculus with 4 samples.

Results

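Cajal-Retzius (CR) cells were identified among single nuclei of the medial neocortex of E16.5 mouse embryos and described against the other nuclei of the same tissue and by genotype. The members were selected on measured values. A nucleus was taken as a CR nucleus when it held at least 10 transcripts of *Reln* and at least 1 of *Trp73*, at most 1 of *Gad1* and *Gad2* together and at most 1 of *Mki67* and *Top2a* together. Values of these 6 genes are therefore a description without a test. Of 29656 retained nuclei (1500 to 60000 transcripts each), 345 met the rule.

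The Dnmt1 KO embryos were *Sst-Cre/tdTomato/Dnmt1 loxP2* and carried a loxP-flanked *Dnmt1*, Cre driven by the somatostatin gene and the tdTomato reporter. The control embryos, *Sst-Cre/tdTomato*, shared the Cre and the reporter. *Dnmt1* encodes DNA methyltransferase 1, and its deletion is directed to somatostatin-expressing interneurons, not to CR cells. Each genotype had 2 libraries, named KO1, KO2, C1 and C2 here, and values for 4 libraries are given in this order. According to the labels, C2 was the only library of batch 2 and was made as 2 sublibraries, against 8 for each other library, so batch 2 and C2 cannot be told apart. The study gives the samples of a genotype as brains of different mice. Tests between genotypes within CR nuclei therefore measure the spread between these brains, with any technical spread included. Tests that compare sets of nuclei do so within each library and measure how that difference varies between libraries.

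CR cells are early-born, transient neurons of the marginal zone, the outermost layer of the developing cortex. They arise at the borders of the pallium, among them the cortical hem at the medial edge of the cortex. They secrete reelin, an extracellular glycoprotein that acts on migrating neurons through the receptors VLDLR and ApoER2 (encoded by *Lrp8*) and the adaptor DAB1. Many CR cells die after birth. The transcription factor p73, encoded by *Trp73*, marks the CR cells of the hem and septum.

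Most CR nuclei lay far above the *Reln* limit. The median CR nucleus held 526, 447, 597 and 989.5 *Reln* transcripts in the 4 libraries. *Reln* (chromosome 5, 22089452-22549700, minus strand, GRCm39) made up 2.84%, 2.36%, 2.56% and 2.59% of all transcripts of the CR nuclei. The CR nuclei held 77.9%, 74.3%, 60.9% and 74.3% of the *Reln* transcripts of all retained nuclei. *Trp73* (chromosome 4, 154140706-154224665, minus strand) had medians of 19, 17, 22.5 and 40.5 transcripts per CR nucleus. Just inside the limit, 0, 1, 1 and 1 CR nuclei held 10 to 19 *Reln* transcripts. Just outside it, 1, 3, 1 and 5 nuclei held 5 to 9 and met the other limits. Nuclei with 100 or more *Reln* transcripts and no *Trp73* numbered 8, 6, 2 and 1.

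CR nuclei were deeper than the tissue around them. Their median was 17564, 18583.5, 21044 and 35096 transcripts, against 12274, 12383.5, 12401 and 21140 for all retained nuclei, so that C2 was the deepest library in both. No barcode was shared between libraries. Scrublet called 2, 16, 2 and 2 of the CR nuclei doublets.

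The name CR was checked on the 13 genes of a 15-gene CR marker list that the gate did not use. Transcripts were summed over the CR nuclei and over all other nuclei of each library, and levels are given as CPM, the transcripts of a gene scaled to the total of the sum. Of the 13 genes, 11 were higher and 1 was lower in CR nuclei (edgeR's quasi-likelihood test with the library as block, n = 4 libraries, Benjamini-Hochberg adjusted p under 0.05). Of all 19640 genes tested, 26.8% were called, 10.8% higher and 16% lower. The median log2 fold change of the markers was 5.5, against -0.10 over all genes tested.

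*Lhx1* (chromosome 11, 84408803-84416368, minus strand), a LIM-homeodomain factor gene and one of the defining CR genes, was at 103, 100, 94.3 and 63.2 CPM in the CR nuclei. In all other nuclei it was at 0.0678 to 0.342 CPM, so no CR value came near the range of the rest (log2 fold change 8.70 ± 0.27 SE). At least 1 *Lhx1* transcript was found in 69.3% of CR nuclei and in 0.232% of the others. When nuclei were thinned to 5000 transcripts each, the shares were 35.6% of 337 and 0.0912% of 27422 nuclei, with 8 and 1889 shallower nuclei left out. Its paralogue *Lhx5* was at 65.6 to 88.4 CPM in CR nuclei and 0.171 to 0.453 CPM in the others.

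The EBF factors, helix-loop-helix regulators of neuronal differentiation, differed in how far they were restricted to CR nuclei. *Ebf3* (chromosome 7, 136795402-136916218, minus strand) was at 906, 823, 1003 and 734 CPM in the CR nuclei and 4.24 to 8.61 CPM in the others (log2 fold change 7.02 ± 0.17 SE). It was detected in 95.9% of CR nuclei and 3.85% of the others. *Ebf2* was at 127 to 288 CPM against 1.08 to 4.29 CPM. *Ebf1* was at 253 to 372 CPM in CR nuclei, but other nuclei ranged from 55.9 to 387 CPM, so the groups overlapped. Its log2 fold change was 1.33 ± 0.41 SE (adjusted p = 0.0314, edgeR). Without KO1 or C2 it was 1.00 and 0.86, and the call was lost (adjusted p = 0.105 and 0.0847, edgeR).

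Other CR markers encode secreted, membrane and calcium-related proteins. *Ndnf* (chromosome 6, 65648574-65689310, plus strand), a secreted glycoprotein gene, was at 641, 829, 828 and 1173 CPM in CR nuclei against 2.39 to 5.93 CPM elsewhere. *Car10* (chromosome 11, 92988790-93492580, plus strand), a carbonic anhydrase-related gene, was at 1753, 2194, 1875 and 3034 CPM against 18 to 60.4 CPM. The auxiliary calcium channel subunit gene *Cacna2d2* was at 716 to 943 CPM against 14.1 to 21.2 CPM. *Calb2*, which encodes the calcium-binding protein calretinin, was at 45.4 to 91.6 CPM against 2.08 to 4.14 CPM, and the helix-loop-helix factor gene *Nhlh2* at 174 to 207 CPM against 3.27 to 6.27 CPM. In all 5 genes the groups did not overlap.

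*Tbr1*, a T-box factor gene that CR cells share with deep-layer neurons, was at 123 to 149 CPM in CR nuclei against 50.7 to 70.5 CPM (log2 fold change 1.15 ± 0.11 SE). The proteoglycan gene *Spock1* was the lower marker, with 215 to 430 CPM against 491 to 650 CPM. *Chst8*, a sulfotransferase gene, was at 41.7 to 57.1 CPM in CR nuclei and 41.9 to 69.7 CPM in the others and did not pass the test (log2 fold change -0.10 ± 0.15 SE, 0.07 without KO1).

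**Figure D1:**
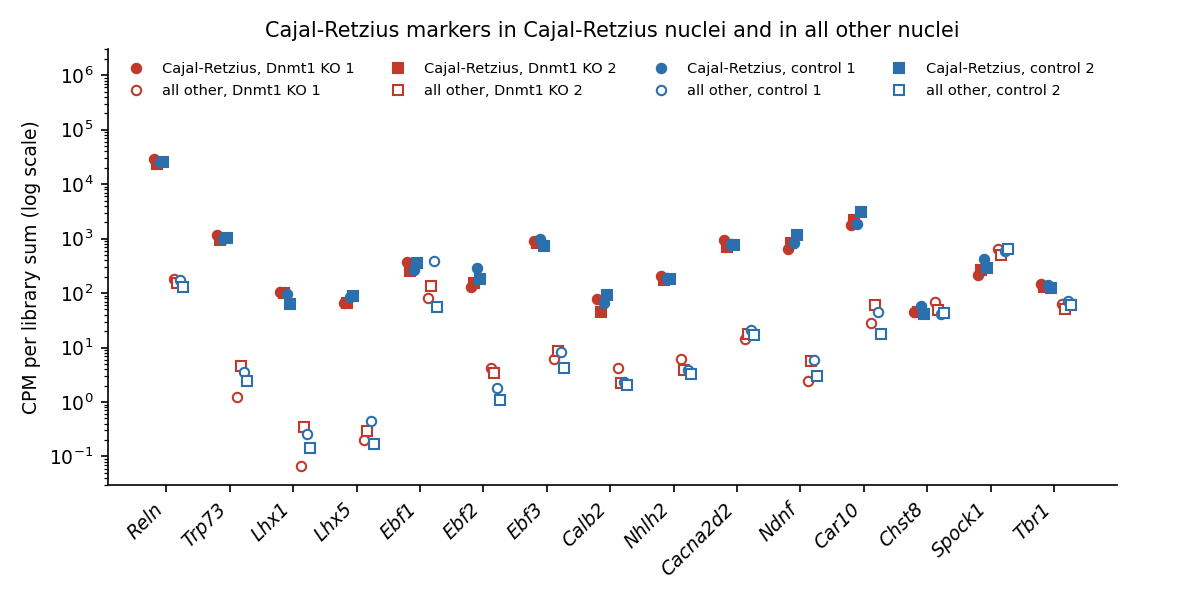
Level of the 15 CR markers (CPM, logarithmic axis) in CR nuclei (filled) and in all other nuclei (open) of the 2 Dnmt1 KO libraries (red) and the 2 control libraries (blue), 1 point per library. *Reln* and *Trp73* were part of the gate; *Lhx1* and *Lhx5* lay below 1 CPM in all other nuclei, and the sets overlapped for *Chst8* and *Ebf1*.

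Among the called genes detected in at least 25% of CR nuclei, those with the largest fold higher included *Lhx1*, *Lhx1os*, *Lhx5*, *Kcnj5*, *Ndnf*, *Barhl2*, *Ebf3*, *Samd3*, *Ebf2*, *P2rx5*, *Gpr149*, *Pik3c2g*, *Casz1*, *Car10*, *Fibcd1*, *Ggt5*, *Lrig3*, *Cd274* and *Cacna2d2*. The rule also required the same direction in 4 of 4 libraries, and their log2 fold changes ran from 5.5 to 8.70. *Lhx1os* (172 to 233 CPM in CR nuclei) lies antisense to *Lhx1*, and the strand setting of the counting was not given, so reads of this pair may be shared. *Kcnj5*, a subunit gene of a G protein-gated potassium channel, was at 38.9, 34.2, 32.4 and 49.9 CPM in CR nuclei and 0.100 to 0.201 CPM in the others. *Barhl2*, a homeodomain factor gene, was at 17.1 to 27.9 CPM against 0.0630 to 0.271 CPM. The ATP-gated channel gene *P2rx5* was at 36.5, 28.7, 34.3 and 30.3 CPM and below 1 CPM in the others. *Cd274*, the gene of the immune checkpoint ligand PD-L1, was at 40.1, 57.7, 44.8 and 72.7 CPM against 0.783 to 1.29 CPM.

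Among called genes detected in at least 25% of the other nuclei, the largest folds lower were those of *Diaph3*, *Grb10*, *Adarb2*, *Etl4*, *Sox6*, *Trpc4*, *Cdk6*, *Rhbdl3*, *Cnih3* and *Prdm16*, with log2 fold changes from -4.33 to -3.79. The cyclin-dependent kinase gene *Cdk6* was at 2.43 to 11.4 CPM in CR nuclei against 92.3 to 113 CPM. *Prdm16*, a factor gene of radial glia, was at 8.51 to 35.5 CPM against 227 to 336 CPM, and *Sox6*, a factor gene of progenitors and interneurons, at 35.4 to 94.1 CPM against 680 to 1130 CPM. The gate limited cell-cycle and interneuron transcripts in the CR nuclei, and the other nuclei had no such limit.

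Genes of the dorsal midline and the hem, where many CR cells arise, were mostly higher in CR nuclei. Of 19 tested members of a list of 22, 14 were higher and 0 lower, with a median log2 fold change of 1.5. Of all genes tested, 10.8% were higher and 16% lower. In the list 3 members were not tested, and 16 of the 19 had an unadjusted p under 0.05 (edgeR). *Lmx1a* (chromosome 1, 167516677-167676310, plus strand), a LIM-homeodomain factor gene that marks the hem, was at 138, 104, 73.3 and 98.6 CPM in CR nuclei and 8.61 to 22.7 CPM in the others. The zinc finger genes *Zic1* (44.2 to 82.6 CPM against 2.84 to 16.6) and *Zic2* (37.3 to 48 CPM against 2.84 to 6.80) were higher, as was *Zic5* (log2 fold change 3.19). *Emx2* (55.2 to 95.4 CPM against 7.19 to 16.2) and *Dmrt3* (log2 fold change 2.94), patterning factor genes of the pallium, rose as well. *Rspo3*, which encodes a secreted Wnt agonist, was at 758, 647, 412 and 278 CPM against 96.8 to 164 CPM. *Bmp4*, *Gdf7* and *Msx1* had no transcript in any CR nucleus (0 of 345 nuclei). This allows a share of up to 0.870% of nuclei with a transcript, for counting error only, and sets no limit on the share that expressed the gene below detection. The hem morphogen genes *Wnt3a* and *Wnt8b* were at 0 to 3.39 and 0 to 3.70 CPM.

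Transcription factors of cortical plate neurons showed the opposite direction. Of 20 tested members, 17 were lower and 1 was higher in CR nuclei, against 16% and 10.8% of all genes tested. The median log2 fold change of the list was -2.42. *Sox5*, a factor gene of deep-layer projection neurons, was at 229, 484, 866 and 257 CPM in CR nuclei and 3207 to 3625 CPM in the others (log2 fold change -3.11 ± 0.27 SE), and the groups did not overlap. *Rorb* and *Bcl11b*, factor genes of upper-layer and of subcerebral neurons, had log2 fold changes of -3.27 and -2.80. The higher gene was *Nr2f2* (COUP-TFII), a nuclear receptor gene, at 138, 137, 149 and 144 CPM against 3.03 to 32.7 CPM. *Bcl11a* and *Bhlhe22* did not pass (adjusted p = 0.0526 and 0.960, edgeR).

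On the receiving side of reelin signaling, 12 genes were tested, of which 2 were higher and 3 lower in CR nuclei. Of all genes tested 10.8% were higher and 16% lower. The adaptor gene *Dab1* was at 856, 1177, 982 and 912 CPM in CR nuclei and 2368 to 3887 CPM in the others (log2 fold change -1.58 ± 0.14 SE). The receptor gene *Lrp8* was at 138 to 245 CPM against 286 to 328 CPM, and the integrin gene *Itgb1* fell by 0.35 on the log2 scale. *Src*, a kinase gene of the family that phosphorylates DAB1, was higher at 64.5 to 117 CPM against 40.5 to 52.3 CPM, as was *Rapgef1* (log2 fold change 0.36). The receptor gene *Vldlr* (27.6 to 43.1 CPM against 31.8 to 50.0) and the kinase gene *Fyn* did not pass the test (adjusted p = 0.240 and 0.674, edgeR), nor did *Crk*, *Crkl*, *Rap1a*, *Pafah1b1* and *Itga3*.

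Of 31 tested genes of chemokine, Eph-ephrin and guidance signaling, 9 were higher and 15 lower, against 10.8% and 16% of all genes tested. CXCL12 made by the meninges is known to hold CR cells at the cortical surface through the receptor CXCR4. *Cxcr4* was at 31.6, 14.8, 22.9 and 33.5 CPM in CR nuclei and 4.02 to 5.24 CPM in the others, while the atypical receptor gene *Ackr3* was at 0 to 2.43 CPM against 8.02 to 14.2 CPM. *Cxcl12* (chromosome 6, 117144945-117158328, plus strand), the ligand gene, was also higher in CR nuclei, at 65, 34.2, 51.4 and 73.9 CPM against 2.44 to 9.66 CPM. The summed level of the 8 meningeal markers was 0 to 3.70 CPM in CR nuclei and 3.83 to 89.7 CPM in the others, and *Dcn* was at 0 in CR nuclei.

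Among guidance receptors, the netrin receptor gene *Unc5b* was at 156 to 252 CPM in CR nuclei against 7.42 to 11.5 CPM (log2 fold change 4.36 ± 0.16 SE). The semaphorin gene *Sema6a* was at 1643, 1362, 1294 and 914 CPM against 114 to 249 CPM, and the semaphorin receptor gene *Plxnd1* at 97.2 to 162 CPM against 7.19 to 19 CPM. The receptor genes *Nrp1* and *Epha4* and the ligand genes *Sema3a* and *Sema3c* were lower, with log2 fold changes of -2.80, -2.78, -3.00 and -3.19.

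Transmitter and excitability genes moved in both directions, with 11 of 35 higher and 14 lower, against 10.8% and 16% of all genes tested. *Slc17a6*, the gene of the vesicular glutamate transporter VGLUT2, was at 375, 259, 227 and 263 CPM in CR nuclei against 71.2 to 124 CPM, whereas *Slc17a7* (VGLUT1) was at 0.617 to 3.81 CPM against 8.54 to 11.3 CPM. The NMDA receptor subunit genes *Grin3a* (48.6 to 196 CPM against 5.98 to 23.9) and *Grin1* (68.7 to 99.2 CPM against 22.3 to 35.2) were higher, and the AMPA receptor subunit gene *Gria2* was lower (553 to 753 CPM against 1740 to 1935). The pacemaker channel gene *Hcn4* was at 39.8 to 73.9 CPM against 9.85 to 13.9 CPM. The chloride importer gene *Slc12a2* was slightly lower (log2 fold change -0.40 ± 0.11 SE). The chloride exporter gene *Slc12a5* did not pass (6.68 to 9.48 CPM against 6.67 to 10.6, adjusted p = 0.607, edgeR), nor did the GABA-A receptor subunit gene *Gabra2* (adjusted p = 0.669, edgeR).

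Among 16 tested genes of cell death and the p53 family, 6 were higher and 3 lower in CR nuclei. The shares over all genes tested were 10.8% and 16%. *Diablo*, an antagonist of inhibitors of apoptosis, was at 210, 185, 198 and 279 CPM in CR nuclei and 24.6 to 28.1 CPM in the others (log2 fold change 3.05 ± 0.13 SE). The p53 target gene *Cdkn1a* (p21) was higher at a low level (3.16 to 6.68 CPM against 0.312 to 0.602), as were the death genes *Bbc3* and *Apaf1*, the survival gene *Bcl2l1* and *Mdm2*. *Trp53* itself was lower (12 to 18.8 CPM against 20.3 to 25.2), like *Bcl2* and *Ngfr*. *Bax* did not pass.

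In the DNA methylation machinery, 2 of 11 tested genes were higher and 2 lower, against 10.8% and 16% of all genes tested. The de novo methyltransferase gene *Dnmt3a* was at 269, 213, 258 and 286 CPM in CR nuclei and 58.7 to 73.9 CPM in the others (log2 fold change 1.92 ± 0.12 SE). The demethylation enzyme gene *Tet1* was at 69.9 to 87.6 CPM against 53.5 to 59.3 CPM, and *Tet2* was lower (57.5 to 88.7 CPM against 116 to 134). *Uhrf1*, whose product recruits DNMT1 to replicating DNA, was at 0.952 to 2.53 CPM against 7.28 to 11.2 CPM. The gate limited cell-cycle transcripts in CR nuclei only. *Dnmt1* did not pass, at 55.9, 47.8, 59 and 51.2 CPM in CR nuclei against 62, 47.5, 59.6 and 56.1 CPM in all other nuclei, and *Dnmt3b* and *Tet3* did not pass either.

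**Figure D2:**
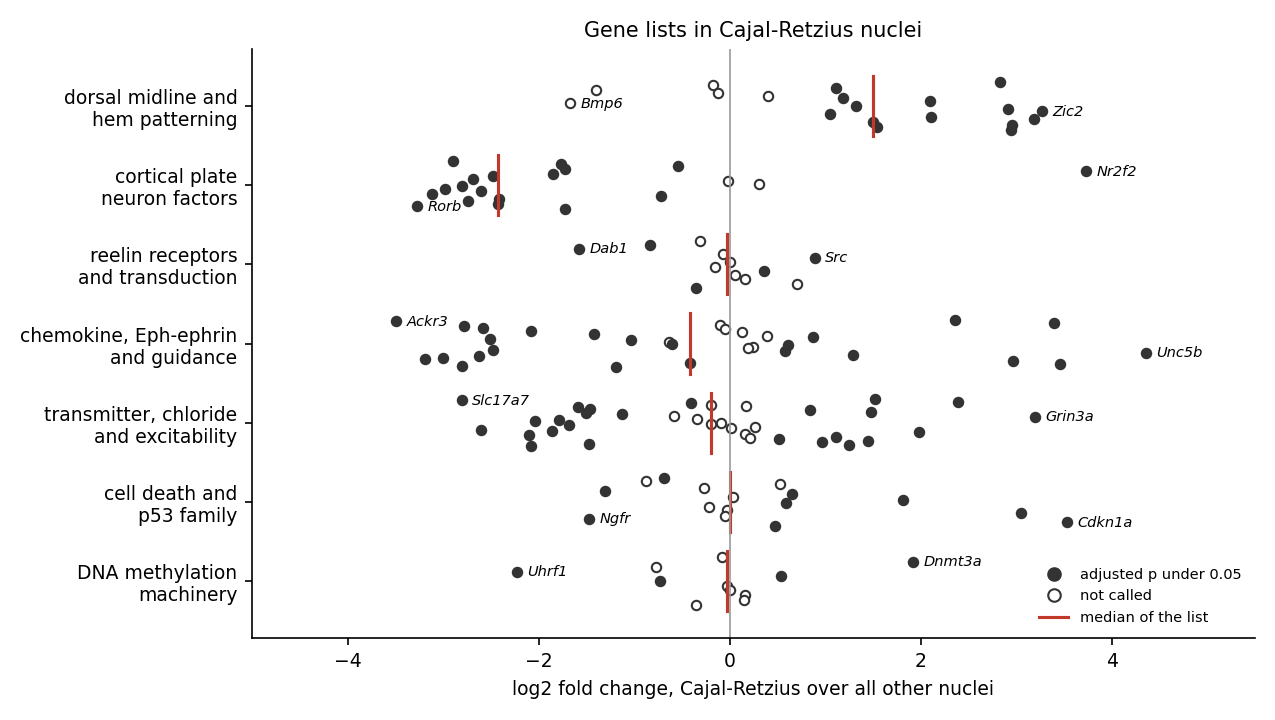
Log2 fold change of every tested member of 7 gene lists between CR nuclei and all other nuclei (edgeR, library as block, 4 libraries), with filled points for genes called at an adjusted p under 0.05, open points for the others and a red line at the list's median. Hem genes lay mostly above 0 and cortical plate factors below it, with *Nr2f2* as the called exception, and the remaining lists spread to both sides.

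Markers of interneurons and progenitors were low in CR nuclei. The gate limited *Gad* and cell-cycle transcripts in CR nuclei, and the other nuclei had no such limit. Lower levels of these lists therefore follow in part from the gate. Over all genes tested 16% were lower and 10.8% higher, to be set beside each count of called genes in this paragraph. Of 11 tested interneuron genes 10 were lower and 0 higher, and their summed level was 43.6 to 118 CPM against 737 to 1839 CPM. All 9 tested radial glia genes were lower (summed 120 to 336 CPM against 1475 to 1578). The intermediate progenitor list had 3 of 4 tested genes lower (16.2 to 34.6 CPM against 39.1 to 72.0) and the meninges list 6 of 8 (0 to 3.70 CPM against 3.83 to 89.7). Other lists were less clear. The endothelial and mural list had 6 lower genes of 10 and 1 higher, the pericyte gene *Rgs5* (21.9 to 49.9 CPM against 5.24 to 12). In the choroid plexus list 2 of 5 were lower and 1 higher (*Clic6*, 1.90 to 12.8 CPM against 0.270 to 7.59), and in the oligodendrocyte precursor list 0 of 4 were lower and 1 higher (*Cspg4*, 4.94 to 16.4 CPM against 2.08 to 3.70). The endothelial and mural list summed to 31.0, 43.2, 110 and 61.3 CPM in CR nuclei against 86.8, 147, 86.6 and 78.9 CPM, higher in CR nuclei of C1 and lower in the other libraries. Of the 56 *Flt1* transcripts in all CR nuclei, 46 lay in 1 nucleus. How far single nuclei set these sums was not tested. The choroid plexus list summed to 4.42 to 24.4 CPM in CR nuclei, above the other nuclei in KO1 (17.0 against 13.3 CPM) and below them in the other libraries. The oligodendrocyte precursor list summed to 15.2, 8.95, 11.4 and 16.4 CPM against 3.57, 15.8, 7.68 and 3.99 CPM, higher in CR nuclei in all libraries but KO2. The microglia and erythroid lists had 0 of 4 genes each called by edgeR, 1 and 0 of them at an unadjusted p under 0.05, with summed levels of 1.22 to 6.95 and 0 to 6.79 CPM in CR nuclei against 6.09 to 10.4 and 1.57 to 8.67 CPM. Some members of these lists were at 0 in CR nuclei, such as *Cdh5*, *Folr1*, *Olig1*, *C1qa* and *Dlx6*, but other members of the same lists were detected. Of the 345 CR nuclei, 99 held *Rgs5*, 46 *Cspg4*, 35 *Ttr*, 27 *Pecam1*, 21 *Dlx6os1* and 17 *P2ry12*. *Olig1* and *C1qa* were not among the tested genes.

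Of 4 tested subplate genes, 2 were higher and 1 lower, against 10.8% and 16% of all genes tested. *Tmem163*, a zinc transporter gene (chromosome 1, 127414283-127607285, minus strand), was at 1317, 1047, 1185 and 1388 CPM in CR nuclei against 34.4 to 43.5 CPM, and *Nxph4*, a neurexin ligand gene, had a log2 fold change of 1.64. The lower gene was *Nr4a2* (0 to 4.01 CPM against 8.66 to 23.3), and *Cplx3* was at 0.

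The 13132 excitatory neurons (at least 2 transcripts of *Neurod2* and *Neurod6* together, the limits on *Gad* and cell-cycle genes as above, *Trp73* at 0, *Reln* under 10) gave a comparison with other glutamatergic cells. Of 17489 genes tested, 28.7% were called, 13.3% higher and 15.4% lower in CR nuclei. Of 19 tested hem genes 16 were higher and 0 lower (17 with an unadjusted p under 0.05, edgeR), with a median log2 fold change of 2.91, against -0.05 over all genes. *Lmx1a* was at 0.456 to 2.42 CPM in excitatory neurons. *Cxcr4* was at 0.707 to 1.63 CPM and *Dnmt3a* at 24.1 to 38.1 CPM in these neurons, both below every CR value. *Slc17a6* was higher in CR nuclei also against them (log2 fold change 1.22 ± 0.13 SE). Under these shared limits, 1 of 8 tested interneuron genes was higher and 1 lower in CR nuclei. The interneuron list summed to 43.6 to 118 CPM in CR nuclei and 47.0 to 85.4 CPM in excitatory neurons. Of 8 tested radial glia genes 1 was higher and 2 lower, and of 4 intermediate progenitor genes 0 and 2.

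Ranks against excitatory neurons were taken among called genes detected in at least 25% of the nuclei of the higher set. The largest folds higher were those of *Lhx1os*, *Ndnf*, *Lhx1*, *Lhx5*, *Barhl2*, *Samd3*, *Kcnj5* and *Ebf3*, from 8.34 to 10.78 on the log2 scale. *Ndnf* was at 0.408 to 1.02 CPM in excitatory neurons. With levels near 0 there, the order of these genes may depend on the prior count of the fit. The largest folds lower by this rule were those of *Iqcj*, *Kitl*, *Adamtsl1*, *Cnih3*, *Ldb2*, *Itprid1*, *Sez6* and *Kif26a*. *Kitl*, which encodes the ligand of the receptor KIT, was at 1.82, 8.02, 7.62 and 3.16 CPM in CR nuclei against 76.7 to 112 CPM in excitatory neurons, and *Ldb2*, a cofactor gene of LIM-domain factors, at 23.1 to 112 CPM against 820 to 950 CPM. Sets of CR nuclei and excitatory neurons did not overlap for either gene.

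The other *Reln*-rich cells were 677 *Reln*-positive interneurons (*Reln* at least 10, *Gad1* and *Gad2* together at least 5, *Trp73* at 0, cell-cycle limit as above). Of 11004 genes tested against them, 32.2% were called, 16.7% higher and 15.5% lower in CR nuclei. With the same detection limit, the largest folds higher were those of *Ebf3*, *Ebf2*, *Kcnj5*, *Lhx1os*, *Lhx1*, *Ndst4*, *Ggt5* and *Tmem163*. *Ebf3* and *Ebf2* were at 0 to 0.848 and 0 to 0.405 CPM in these interneurons, and *Kcnj5* was at 0 in all 4 libraries. Except for *Tmem163*, these genes were at or near 0 in the interneurons, so their fitted folds depend on the prior count, no fold is given and their order is not a result. *Ndnf*, also a marker of neurogliaform interneurons, was at 7.73 to 41.4 CPM, below every CR value. Those with the largest folds lower were *Cntnap3*, *Dlx6os1*, *Npas1*, *Nxph2*, *Dgkg*, *Lhx6*, *Adarb2* and *Dlx1as*. *Cntnap3*, *Npas1*, *Nxph2* and *Lhx6* were at or near 0 in CR nuclei, so the order of these lower genes is not a result either. The interneuron transcript *Dlx6os1* was at 1.82 to 4.32 CPM in CR nuclei against 1221 to 1670 CPM. The interneuron factor gene *Lhx6* was at 0 to 1.54 CPM against 184 to 352 CPM. The 2 sets were selected on *Gad1* and *Gad2*, so lower interneuron genes in CR nuclei were largely set by the gates.

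Chemokine genes differed between the 2 kinds of *Reln*-rich cells. *Cxcl12* was at 0 to 0.781 CPM in the interneurons, below every CR value, while *Cxcr4* did not pass (14.8 to 33.5 CPM in CR nuclei, 17.8 to 39 CPM in the interneurons, adjusted p = 0.589, edgeR). The receptor gene *Ackr3* was lower, at 2.43, 0, 1.90 and 0 CPM in CR nuclei against 52.8 to 88.6 CPM in the interneurons. The chloride exporter gene *Slc12a5* fell by 2.35 on the log2 scale (6.68 to 9.48 CPM in CR nuclei against 34.1 to 44). *Slc17a6* was at 12.1 to 23.5 CPM in the interneurons, below every CR value. *Dab1* was slightly higher in CR nuclei than in these interneurons (log2 fold change 0.41 ± 0.12 SE).

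The CR share of retained nuclei was higher in both Dnmt1 KO libraries than in both controls. It was 1.65% in KO1 (93 of 5640 nuclei, exact 95% binomial interval 1.33% to 2.02%) and 1.34% in KO2 (162 of 12064, 1.15% to 1.56%). It was 0.653% in C1 (46 of 7047, 0.478% to 0.870%) and 0.897% in C2 (44 of 4905, 0.653% to 1.20%). The intervals of KO2 and C2 overlapped slightly, and all intervals cover counting error only. The means were 1.5% ± 0.216 and 0.775% ± 0.173 (SD, n = 2 libraries each), a ratio of 1.93. The exact two-sided permutation test gave p = 0.33, the smallest value that 2 libraries against 2 allow. As a share of CR nuclei and excitatory neurons together, the values were 3.72%, 3.28%, 1.54% and 1.44%. In a share, more CR nuclei cannot be told apart from fewer nuclei of other kinds.

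Another medial population also had a higher share in both Dnmt1 KO libraries. Hem nuclei (at least 2 transcripts of *Lmx1a*, at most 2 of *Reln* and of the choroid plexus gene *Ttr*, *Trp73* at 0) were 1.31%, 0.547%, 0.326% and 0.204% of the libraries, or 74, 66, 23 and 10 nuclei. Between the controls the order was the opposite of that of the CR share, which was higher in C2. Their part in the CR share was not tested. Among the sublibraries of a library the CR share ranged from 1.01% to 2.34% in KO1 and 1.12% to 1.94% in KO2. It ranged from 0.111% (1 of 898 nuclei) to 1.21% (11 of 906) in C1 and from 0.828% to 0.971% in C2. Single sublibraries of the genotypes overlapped, but they are parts of a library with few CR nuclei each and not replicates.

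**Figure D3:**
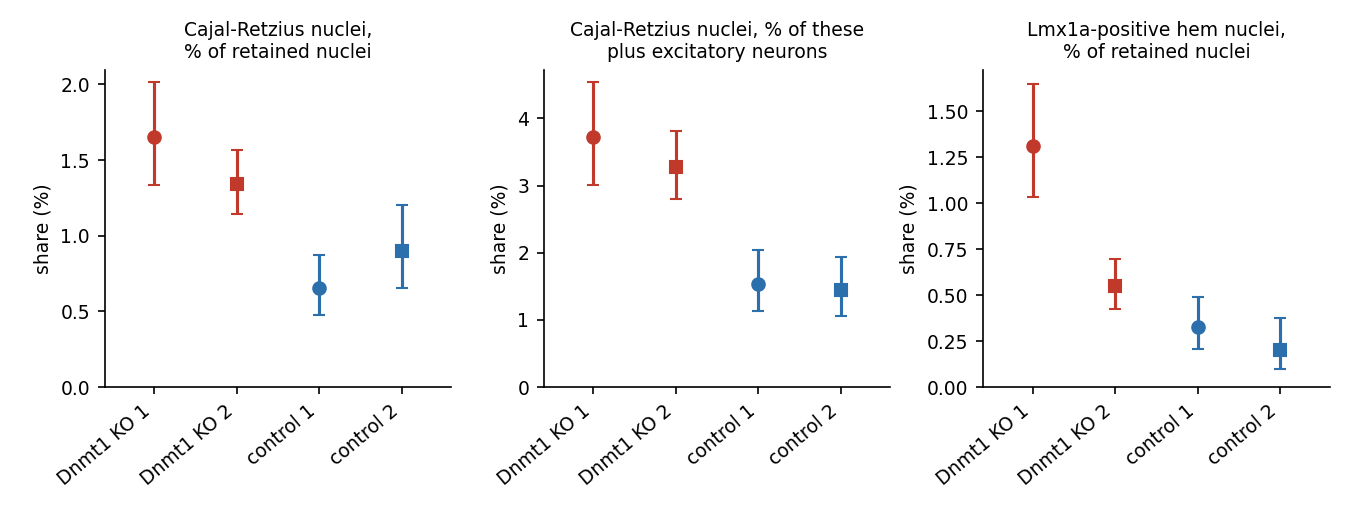
CR nuclei as a share of retained nuclei and of CR nuclei plus excitatory neurons, and hem nuclei as a share of retained nuclei, in percent, for each library with exact 95% binomial intervals. All 3 shares were higher in both Dnmt1 KO libraries (red) than in both controls (blue), with 1.65% and 1.34% against 0.653% and 0.897% for the first.

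*Sst*, whose gene drives Cre, was nearly absent from CR nuclei, with 0, 1, 1 and 0 transcripts in the 4 libraries. *Dnmt1* in CR nuclei rested on 92, 155, 62 and 81 transcripts and did not pass the test between genotypes (log2 fold change -0.09 ± 0.19 SE, adjusted p = 0.961, edgeR). *Sst*-positive nuclei, the targeted kind of cell, were those with a transcript of both *Sst* and *Gad2* and numbered 16, 136, 40 and 27. In them *Dnmt1* was at 76.1, 46.1, 81.2 and 66.5 CPM, with KO1 between the controls. These values rest on 18, 99, 67 and 46 transcripts, so the place of KO1 is uncertain. A count over the whole gene does not resolve the loxP-flanked part, so it checks the deletion poorly.

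Between genotypes, 0 of 9519 genes tested in CR nuclei passed an adjusted p under 0.05 with edgeR's quasi-likelihood test (0%). At an unadjusted p under 0.05 there were 583 genes, the smallest adjusted p was 0.198, and DESeq2 called 15 genes. The library values of 37.1% of all tested genes did not overlap between genotypes, 19% higher and 18.1% lower in Dnmt1 KO. The differences given next did not pass the edgeR test. *Synpr*, *Cntnap5a*, *Mdga1*, *Ano3*, *Bnc2*, *Cmss1* and *Nrp2* were among the 15 genes of DESeq2.

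The gene with the smallest p was *Synpr* (chromosome 14, 8853423-9184986, minus strand), which encodes the synaptic vesicle protein synaptoporin. In CR nuclei it read 49.8 and 52.5 CPM in KO1 and KO2 but 6.67 and 6.32 CPM in C1 and C2 (log2 fold change 2.97 ± 0.24 SE, adjusted p = 0.198, edgeR). The transcripts came from few nuclei, 16 of 93 and 34 of 162 in the Dnmt1 KO libraries but 2 of 46 and 3 of 44 in the control libraries. In all other nuclei *Synpr* read 56.7, 64.4, 41.3 and 37.3 CPM.

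*Cntnap5a* (chromosome 1, 115612486-116515053, plus strand), a cell adhesion gene of the contactin-associated family, read 45.6, 60.8, 9.52 and 6.32 CPM in CR nuclei (log2 fold change 2.79 ± 0.31 SE, adjusted p = 0.462, edgeR). Each control library held 10 transcripts of it, and 8 of those in C2 were in 1 nucleus. *Mdga1* (chromosome 17, 30046923-30189061, minus strand), a gene of a membrane-anchored immunoglobulin protein, read 72.9, 68.2, 27.6 and 20.2 CPM. The anoctamin gene *Ano3* read 80.2, 87.6, 27.6 and 31 CPM, and the zinc finger gene *Bnc2* read 83.8, 47.2, 6.67 and 10.1 CPM. Both Dnmt1 KO libraries lay above both controls in all 4 genes, none of which passed the test. By limma, added after the data were seen, the log2 fold change of *Bnc2* in CR nuclei departed from that in all other nuclei by 0.01. The *Bnc2* difference was therefore not particular to CR nuclei. For *Ano3* the departure was 0.90 (adjusted p = 0.980, limma).

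The genes with the smallest p in the lower direction were *Cmss1*, *Grik3*, *mt-Rnr1*, *Fam20c* and *AU019990*. *Cmss1* read 264, 277, 641 and 756 CPM in CR nuclei, and much the same, 266, 299, 564 and 713 CPM, in all other nuclei. It overlaps *Filip1l* on the opposite strand, so reads may be shared. The kainate receptor subunit gene *Grik3* read 65, 79.6, 149 and 175 CPM in CR nuclei, and the mitochondrial ribosomal RNA *mt-Rnr1* read 36.5, 44.4, 91.4 and 80.9 CPM. Their log2 fold changes departed from those in all other nuclei by -0.67 and -0.64 (adjusted p = 0.956 and 0.935, limma).

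No list member passed between genotypes with edgeR. Of 27 tested guidance genes, 13 lay higher in both Dnmt1 KO libraries without overlap and 3 lower. Over all 9519 genes tested the shares were 19% higher and 18.1% lower, to be set beside each such count here. In CR nuclei the repulsive ligand gene *Slit2* read 475, 556, 315 and 148 CPM, the netrin receptor gene *Dcc* 9876, 8774, 6187 and 3141 CPM and the semaphorin receptor gene *Nrp2* 105, 153, 43.8 and 27.2 CPM. Their adjusted p-values were 0.792, 0.792 and 0.595 (edgeR). Of 14 tested hem genes, 6 lay higher without overlap and 0 lower, among them *Rspo3* (levels above) and *Rspo2* (190, 138, 87.6 and 59.4 CPM). The hem list was also higher in Dnmt1 KO in all other nuclei, with sums of 434, 319, 208 and 202 CPM there against 1583, 1222, 956 and 776 CPM in CR nuclei. The test of the interaction compared the log2 fold change of Dnmt1 KO over control in CR nuclei with that in all other nuclei. Of the list's 19 tested genes, 0 were called with a higher and 4 with a lower fold change in CR nuclei. The median log2 interaction was -0.68, against 0.02 over all genes. Of all genes 0.82% were called, 0.377% with a higher and 0.443% with a lower fold change. The number of such calls over all genes ran from 66 to 309 under the edgeR alternatives, and limma called 0 of 9950 genes (516 at an unadjusted p under 0.05, smallest adjusted p 0.918). Of 18 tested cortical plate factors, 1 lay higher and 9 lower, and of the 13 CR markers 1 and 3. *Dnmt3a*, *Cxcl12* and *Cxcr4* had log2 fold changes of -0.18, -0.39 and -0.37 and adjusted p-values of 0.882, 0.880 and 0.908 (edgeR).

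Summed markers of other cells in CR nuclei also differed between libraries. The choroid plexus list summed to 17.0, 24.4, 5.71 and 4.42 CPM and the interneuron list to 57.1, 118, 89.5 and 43.6 CPM. The intermediate progenitor list summed to 32.2, 34.6, 16.2 and 19.0 CPM and the meninges list to 1.82, 3.70, 0 and 1.26 CPM. Most of the intermediate progenitor sum was *Eomes*, with 175 transcripts in all CR nuclei, against 28 of *Neurog2*, 6 of *Insm1* and 3 of *Mfap4*. Within CR nuclei of KO1, KO2 and C1, *Eomes* was higher in those without *Ndnf* (below), so this sum need not come from other cells. The endothelial and mural list (sums above) was lower, and the choroid plexus, intermediate progenitor and meninges lists were higher, in both Dnmt1 KO libraries than in both controls. The interneuron list overlapped between genotypes. Their part in the genotype differences was not tested.

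**Figure D4:**
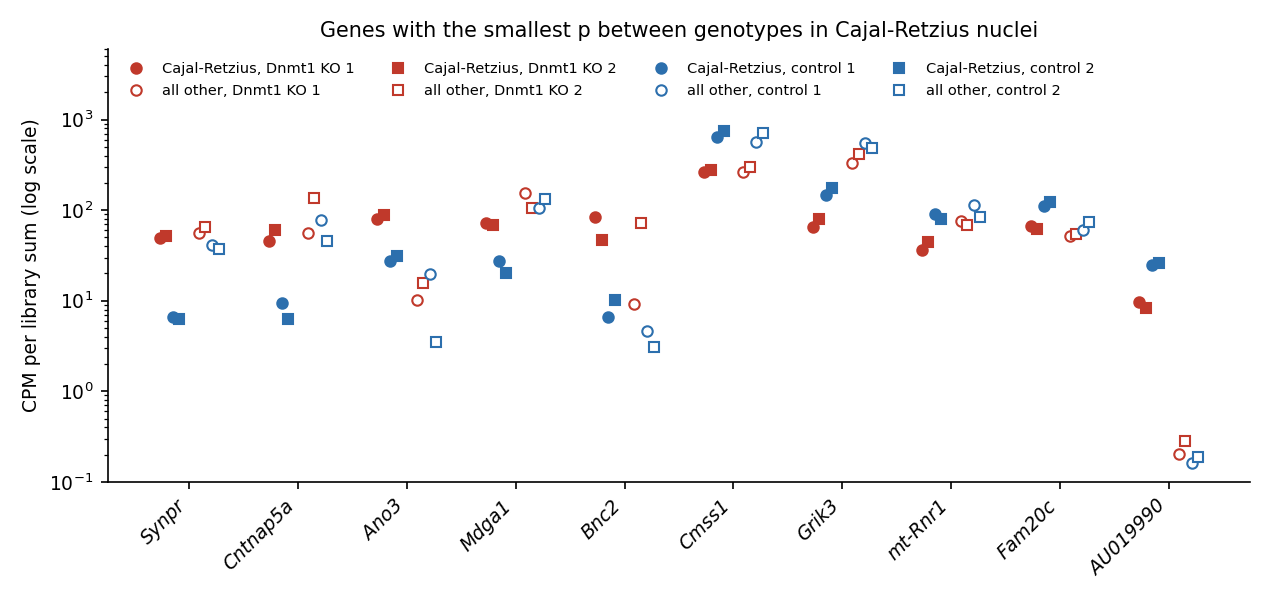
Level (CPM, logarithmic axis) of the 5 genes with the smallest p in each direction between genotypes (at least 20 CPM in a genotype) in CR nuclei (filled) and in all other nuclei (open), 1 point per library, Dnmt1 KO in red and controls in blue. No gene passed the adjusted threshold with edgeR; *Synpr* lay at 49.8 and 52.5 against 6.67 and 6.32 CPM in CR nuclei, whereas *Cmss1* was lower in Dnmt1 KO in both sets of nuclei.

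The CR nuclei were not uniform. In 73 of 345 nuclei no *Ndnf* transcript was counted, and 272 held at least 1. This division was chosen after the values were seen and is given without a test. Nuclei without *Ndnf* were shallower, with medians of 15428, 13517, 13531 and 13789.5 transcripts against 19358, 20057, 22558 and 35602. They held fewer *Reln* transcripts, with medians of 231.5, 209, 300.0 and 374.5 against 607, 534, 622.5 and 1000.5.

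General CR genes were detected in both sets, at like or different levels. *Ebf3* was at 796 to 1305 CPM without *Ndnf* and 724 to 1004 CPM with it, *Tbr1* at 141 to 181 and 122 to 148 CPM, and *Lhx1* at 70.5 to 159 and 61.7 to 96 CPM. *Lhx5* was lower without *Ndnf* in each library, at 45.8, 32.8, 28.2 and 72.5 CPM against 71.4, 75, 89.9 and 88.7 CPM, and *Ebf2* in all but C2, at 59.2, 51.6, 70.5 and 254 CPM against 147, 182, 303 and 177 CPM. The levels of other genes did not overlap between the sets. Lower without *Ndnf* were the marker *Nhlh2* (109 to 170 against 179 to 218 CPM), *Car10* (0 to 367 against 1984 to 3088 CPM), the heparan sulfate enzyme gene *Hs6st3* (0 to 877 against 2038 to 3952 CPM), the potassium channel gene *Kcnq5* (98.7 to 436 against 1313 to 2133 CPM) and *Calb2* (0 to 16.2 against 53.8 to 94.9 CPM).

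Higher without *Ndnf* were *Dcc* (13887 to 24684 against 2950 to 5591 CPM), *Slit2* (1088 to 1698 against 131 to 275 CPM), *Rspo3* (979 to 1875 against 266 to 519 CPM) and the homeodomain factor gene *Prox1* (36.3 to 127 against 5.11 to 14.9 CPM). In KO1, KO2 and C1, *Gmnc*, a geminin-family coiled-coil gene, was at 441, 521 and 479 CPM without *Ndnf* and 18.8, 21.1 and 17.4 CPM with it. *Megf11*, a gene of an EGF-repeat membrane protein, was at 614, 633 and 634 CPM against 43.9, 38.8 and 6.13 CPM, and the T-box factor gene *Eomes* at 91.5, 114 and 141 CPM against 7.85, 9.23 and 3.06 CPM. The 2 nuclei of C2 without *Ndnf* held no transcript of these 3 genes, and *Prox1* was found in 1 of them. The C1 values without *Ndnf* rest on 6 nuclei, of which 3 held *Gmnc*, 2 *Megf11* and 2 *Eomes*. Of the 51 *Megf11* transcripts in CR nuclei of C1, 30 were in 1 nucleus.

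Nuclei without *Ndnf* made up 25.8% (exact 95% interval 17.3% to 35.9%) of the CR nuclei in KO1 and 25.3% (18.8% to 32.7%) in KO2, or 24 and 41 nuclei. In C1 and C2 they were 13.0% (4.94% to 26.3%) and 4.55% (0.555% to 15.5%), or 6 and 2 nuclei. After thinning to 5000 transcripts, *Ndnf* was detected in 67.2% of 250 Dnmt1 KO and 88.5% of 87 control CR nuclei (5 and 3 shallower nuclei left out), against 1.24% of all other nuclei.

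Several genes with higher values in Dnmt1 KO were also higher without *Ndnf* in KO1, KO2 and C1. *Synpr* was at 188, 231, 98.7 and 0 CPM without *Ndnf* and 9.42, 8.46, 0 and 6.43 CPM with it. *Mdga1* was at 210, 253, 98.7 and 36.3 CPM and 33, 22.7, 22.5 and 19.9 CPM, and *Cntnap5a* at 137, 184, 70.5 and 290 CPM and 18.8, 30.4, 5.11 and 1.29 CPM. The C2 values without *Ndnf* rest on 2 nuclei, for *Cntnap5a* on 8 transcripts in 1 of them and for *Mdga1* also on 1 of them. The C1 values without *Ndnf* rest on 6 nuclei, of which 2 held *Synpr*, 3 *Mdga1* and 2 *Cntnap5a*. *Slit2*, *Dcc* and *Rspo3* are given above. The part of the unequal share of nuclei without *Ndnf* in the differences between genotypes was not tested.

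**Figure D5:**
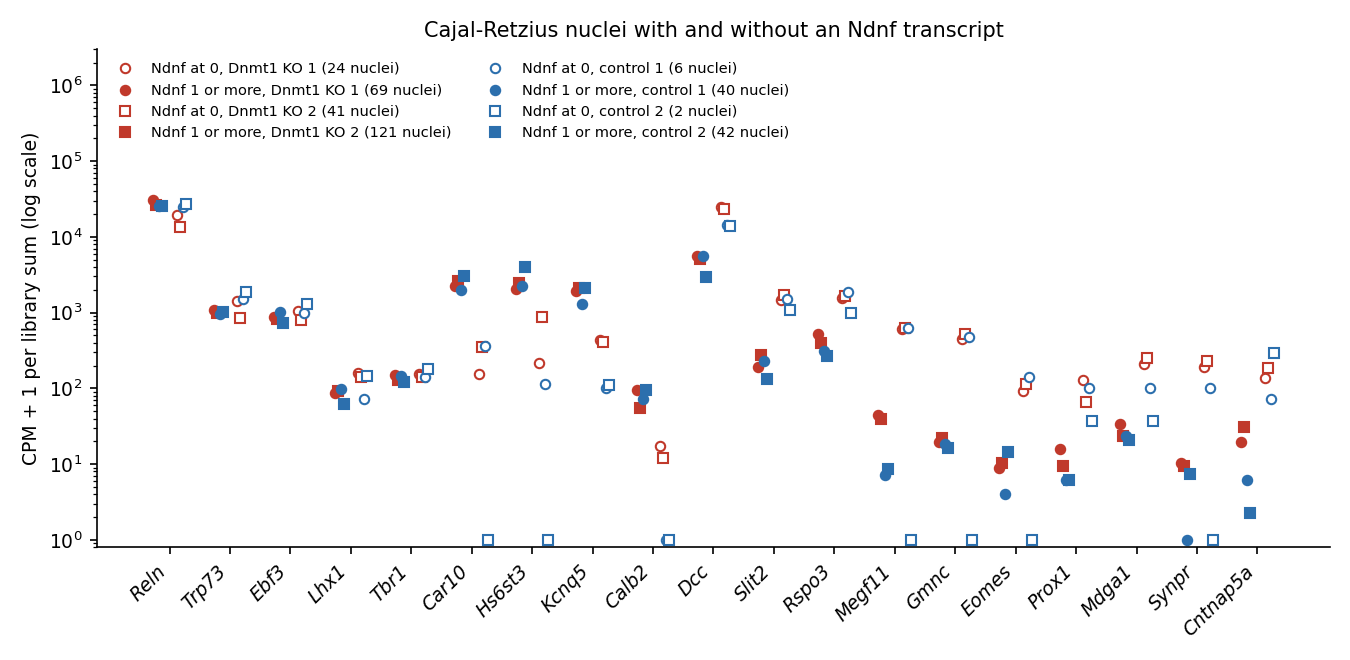
Level of selected genes (CPM plus 1, logarithmic axis) in CR nuclei with at least 1 *Ndnf* transcript (filled) and with none (open), 1 point per library, Dnmt1 KO in red and controls in blue. *Dcc*, *Slit2* and *Rspo3* were higher and *Car10* lower without *Ndnf* in all 4 libraries. The open points of C1 and C2 rest on 6 and 2 nuclei.

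Whether a genotype difference in CR nuclei departed from that in all other nuclei was tested as an interaction. Of 19640 genes, 161 were called by edgeR (0.82%). In 74 of them (0.377%) the log2 fold change of Dnmt1 KO over control was higher in CR than in other nuclei. In 87 (0.443%) it was lower. The count was unstable, with 66 genes (39 higher and 27 lower) without doublet calls, 84 with median-of-ratios scaling, 95 with a *Reln* limit of 5 and 309 without C1. Among the 10 genes named between genotypes those called were *Synpr* (log2 interaction 2.37 ± 0.34 SE), *Cntnap5a* (2.19 ± 0.33 SE) and *Mdga1* (1.51 ± 0.27 SE). The limma test, added after the data were seen, was made on the difference between CR and other nuclei within each library and called none of them (counts above).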

How the data were processed

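Nuclei of frozen medial neocortex were barcoded by split-pool indexing (Parse Evercode), and the authors processed the reads with Trailmaker (mm39, that is GRCm39; R 4.4.1 and Seurat 5.0.1.9001 downstream, per the labels). The deposited values are unfiltered raw counts of transcripts per barcode and gene, without normalization. The annotation and whether intronic or antisense reads were counted are not given in the sources used here. Coordinates are from GENCODE vM39, to which 56323 of 56884 gene IDs were matched.

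Barcodes with 1500 to 60000 transcripts were kept, the range that the study's methods give for reads per cell. All had under 10% mitochondrial transcripts. Libraries held 96455278 to 201141704 transcripts over all barcodes. Doublets were called with scrublet (scanpy 1.11.5, expected rate 5%) and kept. Nuclei are not replicates, so counts were summed per library and set (1050196 to 3240892 transcripts for CR nuclei) and tested with edgeR 4.0.16 in R 4.3.3 (quasi-likelihood, TMM, filterByExpr, Benjamini-Hochberg, threshold 0.05), with the library as block between sets and genotype alone between genotypes. Genes of a gate were left out of its tests. The fits were tested on simulated counts. Alternatives were DESeq2 1.42.0, median-of-ratios scaling, no filter on low counts, other *Reln* limits, depth-matched or thinned nuclei, left-out doublets and libraries, batch and the replicate block. The limma 3.58.1 test and other share definitions were added after the data were seen.

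Named genes were the CR markers, the 20 highest and 10 lowest folds against other nuclei, 8 and 8 against each comparator (called, detected in 25% of nuclei, same direction in 4 libraries, no Gm or Rik symbol), the 5 smallest p each way between genotypes (at least 20 CPM in a group), and from other lists up to 6 called and, in 4 lists, up to 4 uncalled members. Some of these genes are not reported here. Further genes are examples chosen after their values were seen. The members and lists were chosen with earlier results of these data known.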

Additional observations from a re-analysis of the deposited data

Results flagged for a closer look

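The genotype difference in CR nuclei departed from that in all other nuclei for 161 genes by edgeR, and for 66 to 309 under the edgeR alternatives, with 66 without doublet calls and 309 without C1. A limma test on the differences within libraries, added after the data were seen, called 0 of 9950 genes, with 516 at an unadjusted p under 0.05.

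*Synpr* had a log2 interaction of 2.37 (adjusted p = 5.41e-07, edgeR), and without any 1 library it was 2.33 to 2.43 and was called each time. By limma it was 2.17 (adjusted p = 0.918). *Cntnap5a* had an interaction of 2.19 (adjusted p = 2.03e-06, edgeR), called at 1.82 to 2.64 without any 1 library. By limma it was 2.05 (adjusted p = 0.918). *Mdga1* had an interaction of 1.51 (adjusted p = 8.83e-05, edgeR). Without C2 it was 1.13 and the call was lost (adjusted p = 0.102, edgeR), and without each other library it was called at 1.27 to 1.88.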

How the results depend on the processing

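The CR share was higher in Dnmt1 KO (0.721 percentage points) under all alternatives run, by 0.568 to 0.874 points without 1 library, 0.596 points with *Lhx1*, *Lhx5*, *Ebf3* and *Ndnf* in place of *Trp73*, and 2.01 points with CR nuclei and excitatory neurons as denominator. With 2 libraries a genotype no permutation test can pass. The genes called between CR nuclei and all other nuclei (5269), excitatory neurons (5012) and *Reln*-positive interneurons (3545) numbered 4347 to 5518, 4003 to 5179 and 2696 to 4301 under the alternatives. *Chst8*, not called, was at 0.0713 on the log2 scale without KO1 and at -0.10 to -0.25 without each other library, and *Ebf1* lost its call without KO1 or C2.

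In edgeR, 583 of 9519 genes had an unadjusted p under 0.05 between genotypes in CR nuclei. The 0 called genes became 15 with DESeq2 and 254 of 21688 without a filter on low counts. Without 1 library they were 4 to 64, with 8 without KO1, 6 without KO2, 64 without C1 and 4 without C2, where the lone library is assumed to vary like the other genotype. The 161 interactions became 95 and 104 with *Reln* limits of 5 and 20, 66 without doublet calls, 84 with median-of-ratios scaling, 0 with limma (added after the data were seen) and 179 to 309 without 1 library, with 309 without C1. The cause was not tested.

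Replicate numbers were not taken to pair the libraries. Deviations of libraries with the same number from their genotype's mean correlated at -0.019 over 9521 genes. With 2 libraries a genotype, the value for crossed numbers is its mirror (0.019), and C1 and C2 also differ in batch. The correlation therefore cannot decide whether the libraries are paired. With the replicate block 0 genes were called between genotypes. The share difference between libraries of the same number was 0.996 points for number 1 and 0.446 points for number 2. Their mean equals the unblocked 0.721 points by arithmetic, so the block is no check of the share. Depth was low for some genes named between genotypes, such as *Cntnap5a* with 10 transcripts in each control library.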
